A study of Ovis aries with 4 samples.

Results

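The m6A peaks of 10 genes of cell division and cellular senescence were compared between ovaries of aged sheep (5 to 6 years) and young sheep (1 to 2 years). The genes were CCND2, CDK6, CDKN1B, CDC25A, MCM6, MKI67, SIRT6, HMGA1, LMNB1 and ETS1, and their peaks were taken as all rows of the deposited peak lists with one of these gene names. All 10 had at least 1 peak, among 5261 genes with a peak at either age. They were chosen with earlier results of these data known, so that count is not a finding. The aged list held 7 of their peaks, out of 3656 peaks in 3086 genes, and the young list held 9, out of 4378 peaks in 3846 genes. The breed was the Cele black sheep, and the labels name no treatment. For each age, RNA of ovarian tissue was immunoprecipitated with an anti-m6A antibody and sequenced beside an input library that had no antibody step, which makes 4 samples with 1 sample per group. Both libraries of an age came from whole ovarian tissue, and the sources used here do not say whether animals were pooled. In the labels the aged samples carry replicate number 2 and the young samples replicate number 1, so age and replicate number cannot be told apart.

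N6-methyladenosine, or m6A, is a methyl group placed on adenosines inside messenger RNA, most often near stop codons and in 3' UTRs, and reader proteins bound to it can change the splicing, translation and decay of the transcript. Division is driven by cyclins that activate cyclin-dependent kinases, held back by kinase inhibitors and released by CDC25 phosphatases, while MCM proteins license and unwind DNA for replication. Senescence is a lasting exit from division that is known for loss of nuclear lamin and for changed chromatin proteins. In the ovary, proliferation is mainly known from the granulosa cells of growing follicles, where cyclin D2 is required in mice.

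Peaks are parts of a transcript with more immunoprecipitated than input signal. The fold enrichment of a peak, its p and its adjusted p are values of the authors, and a more negative log10 p is a stronger one. With 1 list per age there was no replicate check, and no test between ages was made. The input libraries and sequencing depth were not used here, so a gene without a peak may have lacked the mark, the transcript or the reads. Fewer cells of a type and less RNA per cell also cannot be told apart in whole tissue. The genome build is not given in the sources used here, coordinates are those of the files counted from 1, and 95% intervals of shares (Wilson) cover counting error only.

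The 10 genes divided into 3 with peaks in the aged list only, 3 with peaks in both lists and 4 with peaks in the young list only. The aged-only genes were MKI67, CDC25A and LMNB1, the shared genes were CDKN1B, MCM6 and ETS1, and the young-only genes were CCND2, CDK6, SIRT6 and HMGA1. Among all genes with a peak, 26.9% were aged-only, 31.8% shared and 41.3% young-only. The corresponding shares of the 10 genes were 30.0% (10.8 to 60.3), 30.0% (10.8 to 60.3) and 40.0% (16.8 to 68.7). The shares of the 10 genes were near those of all genes, with wide intervals.

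**Figure D1:**
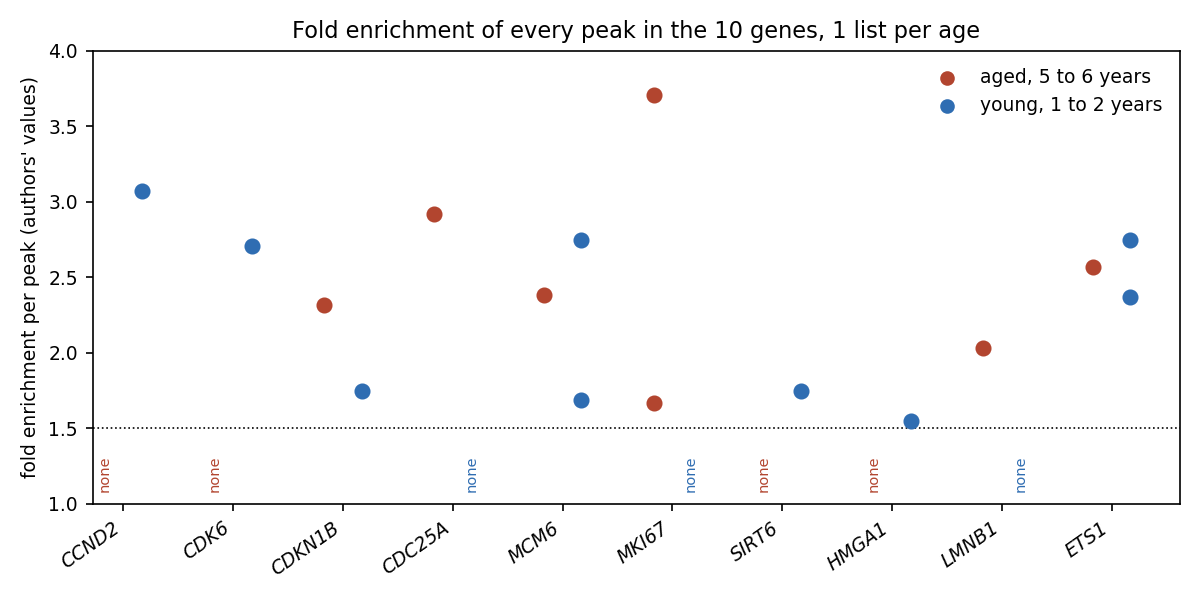
Authors' fold enrichment (vertical axis, linear) of every peak in the 10 genes, with aged peaks in red at the left of each gene and young peaks in blue at the right. Each point is 1 peak, "none" marks a list without a peak in that gene, and the dotted line is the lowest fold in either list, 1.5. MKI67 reached 3.71 in the aged list and CCND2 reached 3.07 in the young list.

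CCND2 and CDK6 carried peaks in the young list only, and that of CCND2 was no longer counted with lists of equal length or with peaks within 1 exon. CCND2, the gene of cyclin D2, had no peak in the aged list and 1 peak in the young list, with a fold of 3.07 and an adjusted p of 1.23e-07. That fold was at or above those of 90.7% of young peaks, but its p was weak for that list, at least as strong as those of 5.78% of young peaks. The peak lay on chromosome 3, minus strand, from 211598323 to 211607921. It held 194 bases of transcript spread over a genomic span of 9599 bases, so that it crossed at least 1 intron, and it was labelled exon. CDK6, a kinase that cyclin D2 activates to start the cycle, had no aged peak and 1 young peak with a fold of 2.71 and an adjusted p of 1.26e-14. It lay on chromosome 4, minus strand, from 10682136 to 10682486, and its label was stop codon. At 351 bases it was the widest of the 16 peaks in the 10 genes.

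CDKN1B, which encodes the kinase inhibitor p27, had 1 peak at each age. Its fold was 2.32 in the aged list and 1.75 in the young list, while its log10 p was -2.29 in the aged list and -29.8 in the young list. The order of the ages thus depended on the measure, with the higher fold in the aged list and by far the stronger p in the young list. The adjusted p was 0.0158 in the aged and 1.26e-29 in the young list. The aged peak lay on chromosome 3, minus strand, from 202777916 to 202778065 and was labelled 3' UTR. The young peak lay at 202777866 to 202778015 and was labelled stop codon. They shared 100 of 150 bases, and both edges of the aged peak lay exactly 50 bases upstream in the transcript of those of the young peak.

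CDC25A, a phosphatase that removes inhibitory phosphates from cyclin-dependent kinases, had 1 peak in the aged list and none in the young list. Its fold of 2.92 was at or above those of 93.2% of aged peaks, and its adjusted p was 0.000148. The peak was labelled stop codon and lay on chromosome 19, plus strand, from 51721606 to 51721756. It was the only one of the 7 aged peaks with that label.

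MCM6, a subunit of the replicative helicase, had 1 peak in the aged list and 2 in the young list. The aged peak had a fold of 2.38 and an adjusted p of 0.0275, the weakest among the 10 genes. It crossed at least 1 intron, with 247 bases of transcript over a span of 3298 bases on chromosome 2, plus strand, from 174991537 to 174994834. The young peaks had folds of 2.75 and 1.69, with log10 p of -15.0 and -12.5, against -2.04 for the aged peak. The stronger young peak was labelled 3' UTR, like the aged one, and lay from 174994686 to 174994834. Both thus stopped at the same base, and the whole of the 149 bases of that young peak lay within the aged span. The files do not say which bases of the aged peak lie in which exon. The other young peak, labelled stop codon, lay 345 bases farther downstream, from 174995180 to 174995377, where the aged list had no peak.

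MKI67, whose product Ki-67 coats mitotic chromosomes and marks dividing cells, had 2 peaks in the aged list and none in the young list. In the aged list 15.1% of genes had 2 or more peaks, and in the young list 12.1%. The upstream peak was labelled exon and lay on chromosome 22, minus strand, from 46996486 to 46996786. Its fold of 3.71 was at or above those of 98.0% of aged peaks and was the highest among the 16 peaks, with an adjusted p of 6.46e-05. The downstream peak was labelled 3' UTR, from 46994943 to 46995093, and lay 1392 bases away. It had a fold of only 1.67 but the strongest p of the 7 aged peaks, at a log10 p of -12.8. Of these 2 peaks, the one with the higher fold thus had the weaker p.

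SIRT6 and HMGA1 each had 1 young peak, of low fold and strong p for that list. SIRT6, a deacylase of histones linked to genome stability, had no aged peak and 1 young peak with a fold of 1.75 and a log10 p of -24.8. HMGA1, an architectural chromatin protein found in senescence-associated heterochromatin, had no aged peak and 1 young peak with a fold of 1.55 and a log10 p of -21.9. The HMGA1 fold was close to the deposited minimum of 1.5, and only 5.82% of young peaks had a fold at or below it. By p, in contrast, both peaks stood in the upper part of the young list, at least as strong as 80.4% (SIRT6) and 75.1% (HMGA1) of its peaks. Each was 149 bases long, on the plus strand, and labelled stop codon. The SIRT6 peak lay on chromosome 5 from 17669788 to 17669936, and that of HMGA1 on chromosome 20 from 8469692 to 8469840.

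LMNB1, the gene of lamin B1, a protein of the nuclear lamina whose loss is a widely used sign of senescence, had 1 peak in the aged list and none in the young list. The fold was 2.03 and the adjusted p 0.00204, and the peak was labelled 3' UTR on chromosome 5, minus strand, from 24855026 to 24855176. Its log10 p of -3.21 was weak for the aged list, at least as strong as 12.6% of aged peaks.

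ETS1, a transcription factor gene whose product can activate CDKN2A in senescent human fibroblasts, had 1 aged peak and 2 young peaks. The aged peak had a fold of 2.57 and a log10 p of -6.57, and lay on chromosome 21, minus strand, from 29254953 to 29255300. The young peak at the same place, from 29254953 to 29255250, had a fold of 2.37 and a log10 p of -8.02. These peaks shared their downstream edge and 298 bases, and the aged one reached 50 bases farther upstream. The other young peak had a fold of 2.75 and lay 446 bases downstream of the first, from 29254357 to 29254506. All 3 were labelled 3' UTR.

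In each of the 3 shared genes an aged peak had 1 base or more in common with a young one of the same strand, as happened in 84.1% of all shared genes. The aged fold was higher than the young fold by 0.41 on the log2 scale in CDKN1B and by 0.12 in ETS1, and the difference was -0.21 in MCM6. The aged p was the weaker one in all 3. Among all 1515 overlapping pairs within a gene, the aged p was weaker in 94.0% and the aged fold was higher in 42.3%, with a median log2 difference of -0.06. Both held at once, as in CDKN1B and ETS1, in 39.7% of pairs. Weaker p-values in the aged list were thus a property of the lists, whose median log10 p was -6.22 for aged and -15.3 for young peaks. By the pair of highest folds, the genes most like CDKN1B among 1543 other shared genes without a LOC name were MYO10 and PRRC2B (each 2.33 aged and 1.75 young). For MCM6 they were BZW1 (2.37 aged and 2.73 young) and SRP72 (2.36 aged and 2.77 young). For ETS1 they were FAM133A (2.57 aged and 2.75 young) and PRDM4 (2.55 aged and 2.67 young). The highest young fold of ETS1, 2.75, was that of its other young peak, which did not overlap the aged one. By highest folds the young value of ETS1 was thus the higher one, unlike in the overlapping pair. With 1 value per age, this likeness describes these lists only.

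**Figure D2:**
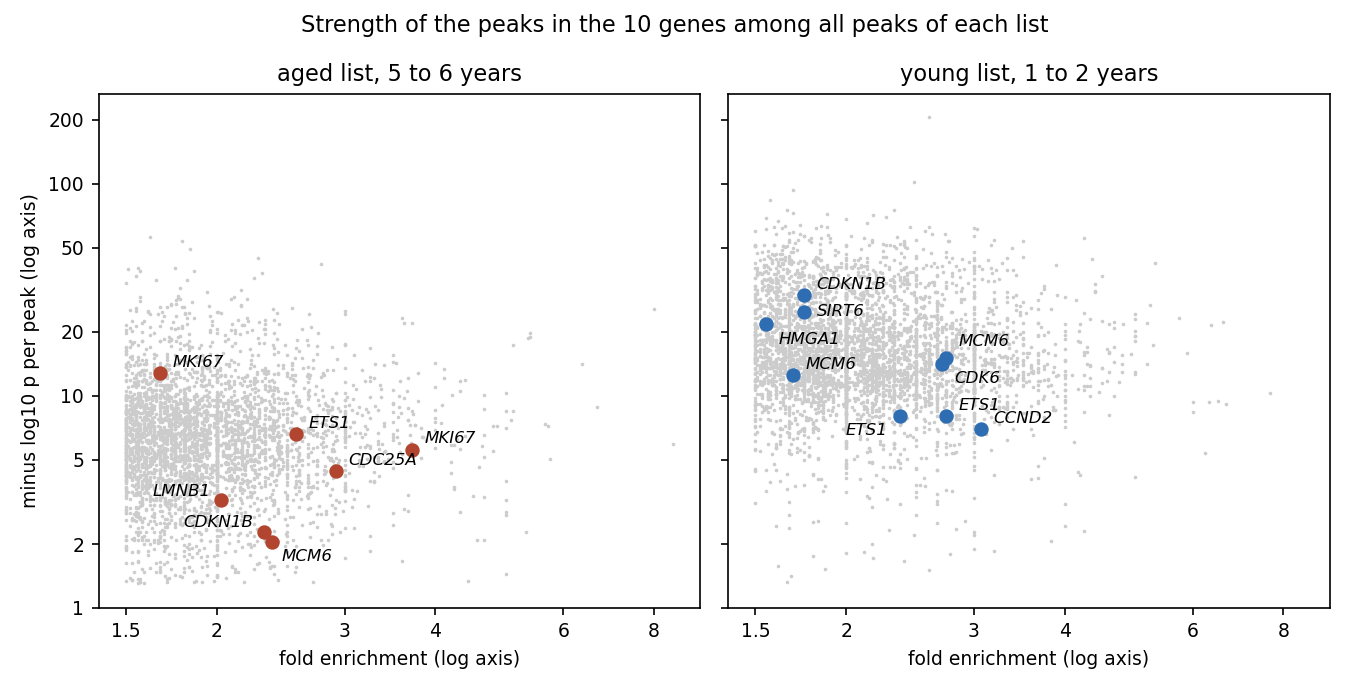
Fold enrichment (horizontal, log axis) against minus log10 p (vertical, log axis) of each peak, for the aged list at the left and the young list at the right. Grey points are all peaks of a list and coloured points are those of the 10 genes. CDKN1B stands at a fold of 2.32 and a log10 p of -2.29 in the aged list and at 1.75 and -29.8 in the young list.

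Over all their peaks, the 10 genes had folds from 1.67 to 3.71 with a median of 2.38 in the aged list and from 1.55 to 3.07 with a median of 2.37 in the young list. The medians over all peaks were 1.88 in the aged and 2.05 in the young list. Log10 p ranged from -2.04 to -12.8 (median -4.43) in the aged list and from -6.99 to -29.8 (median -14.1) in the young list. In these genes 6 of the 7 aged peaks had a weaker p than every young peak. The strongest of the 6, that of ETS1 at -6.57, was at least as strong as 54.4% of all aged peaks. Most peaks of the whole aged list thus also had a weaker p than -6.99. A fold of at least 2 was reached by 6 of the 7 aged peaks, against 42.7% of all aged peaks, and by 5 of the 9 young peaks, against 58.3% of all young peaks. An adjusted p of at most 0.01 was reached by 5 of the 7 aged peaks, against 92.3% of all aged peaks, and by all 9 young peaks, against 99.4% of all young peaks.

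Among the 16 peaks, the downstream edge of the upstream MKI67 peak lay farthest from the gene end as a share of genomic length, at 7.42%, introns included. The upstream edge could lie farther away, as in the CCND2 peak, where it lay 9646 bases from the gene end. The value of 7.42% was taken from these same peaks, and the share of all peaks within it was not counted. Over the whole lists, the median distance of the downstream edge from the gene end was 597 bases (plus strand) and 713 bases (minus strand) for aged peaks. For young peaks it was 250 and 284 bases. Of the 7 aged peaks, 5 were labelled 3' UTR, 1 stop codon and 1 exon, and of the 9 young peaks 3 were labelled 3' UTR, 5 stop codon and 1 exon. None was labelled 5' UTR or start codon. Among all peaks, 15.3% of the aged and 41.3% of the young were labelled stop codon, 66.4% of the aged and 47.3% of the young 3' UTR, and 15.3% of the aged and 9.3% of the young exon. By strand, the stop codon label was on 27.5% of aged plus-strand and 2.58% of aged minus-strand peaks. In the young list it was on 43.1% and 39.0%. On the minus strand lay 5 of the 7 aged and 5 of the 9 young peaks of the 10 genes. Introns were crossed by 1 of the 7 aged peaks (22.5% of all aged peaks) and by 1 of the 9 young peaks (16.9% of all young peaks). Gene ends of the RefSeq assembly ARS-UI_Ramb_v3.0 were used to place the peaks, because 331 aged and 1280 young peaks ended at exactly these bases, on 28 chromosomes in the aged list and 29 in the young list. The 5 young peaks labelled stop codon, in CDK6, CDKN1B, MCM6, SIRT6 and HMGA1, all reached the final base of their gene, and so did the aged CDC25A peak. No other peak of the 10 genes did, and over the whole lists 9.1% of aged and 29.4% of young peaks did. Since a stop codon lies upstream of the 3' UTR, these labels mark peaks at the transcript end and are not read as the site of a stop codon. The other downstream edges lay 543 bases (MCM6), 649 and 2192 bases (MKI67), 3128 bases (ETS1) and 50 bases (CDKN1B and LMNB1) from the gene end in the aged list. In the young list they lay 543 bases (MCM6), 2532 and 3128 bases (ETS1) and 48 bases (CCND2) from it.

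**Figure D3:**
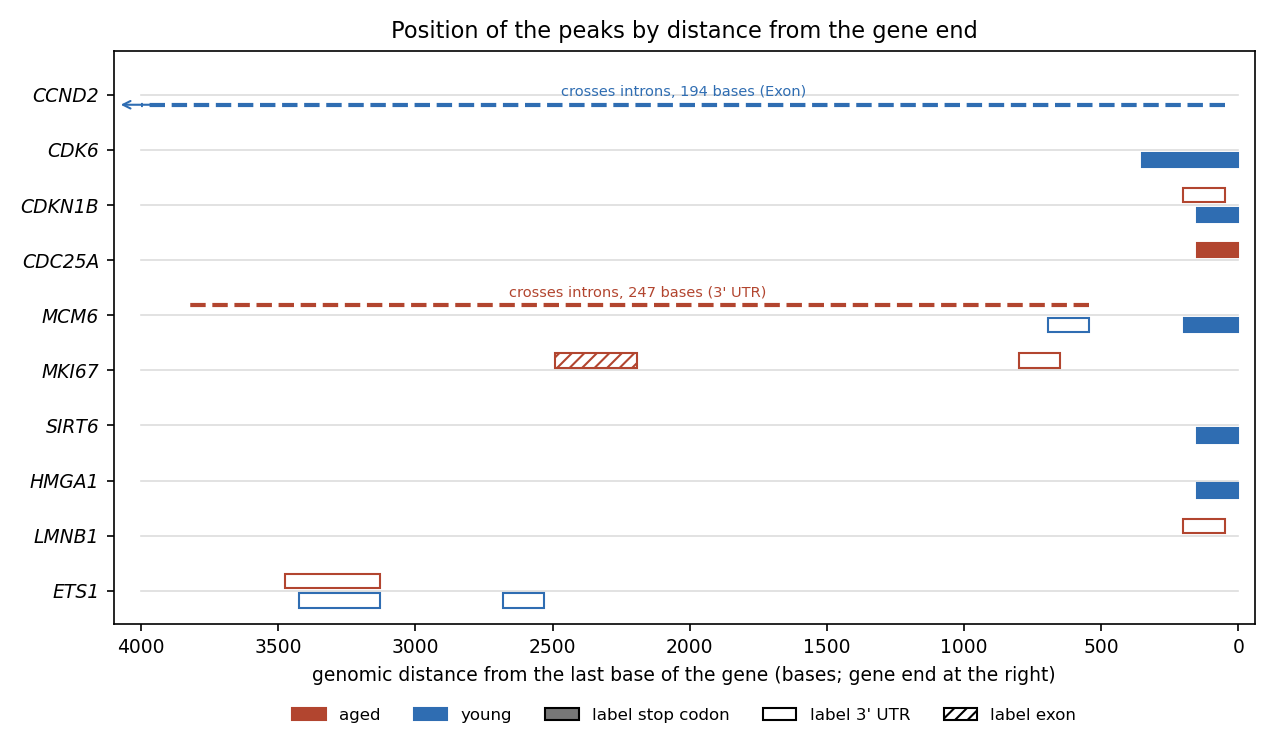
Genomic distance of the peaks from the last base of the gene (horizontal axis, bases, gene end at the right) in the 10 genes, with aged peaks in red above young peaks in blue. Filled bars carry the stop codon label, open bars 3' UTR and the hatched bar exon, and dashed lines are peaks that cross introns, that of CCND2 running beyond the axis. All filled bars touch the gene end, and the aged bars of CDKN1B and LMNB1 stop 50 bases before it.

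The label change of CDKN1B had many counterparts on the same strand. No aged peak on the minus strand ended at the last base of its gene (0 of 1772, which allows a share of up to 0.169%), against 27.9% of young minus-strand peaks. On the plus strand, 17.7% of aged and 30.7% of young peaks ended there. Aged minus-strand peaks instead ended 48 to 50 bases before the gene end in 18.3% of cases, as those of CDKN1B and LMNB1 did, against 6.02% of young minus-strand peaks and 5.42% of aged plus-strand peaks. Among overlapping pairs on the minus strand whose young peak ended at the last base, the aged peak ended 48 to 50 bases upstream of it in 146 of 169. As in CDKN1B, 140 of these 146 pairs were labelled 3' UTR in the aged and stop codon in the young list. On the plus strand the aged peak ended at the same base as the young one in 175 of 221 such pairs and 48 to 50 bases upstream in 27. The shift and the label change of CDKN1B were thus shared by most such pairs of that strand. CDK6, on the same strand, had a young peak that ended at the last base of its gene, where no aged minus-strand peak ended. CCND2 and LMNB1, also on that strand, had their peaks 48 bases (young) and 50 bases (aged) from the end. The part of this shift in which of these genes appear at 1 age only was not tested.

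**Figure D4:**
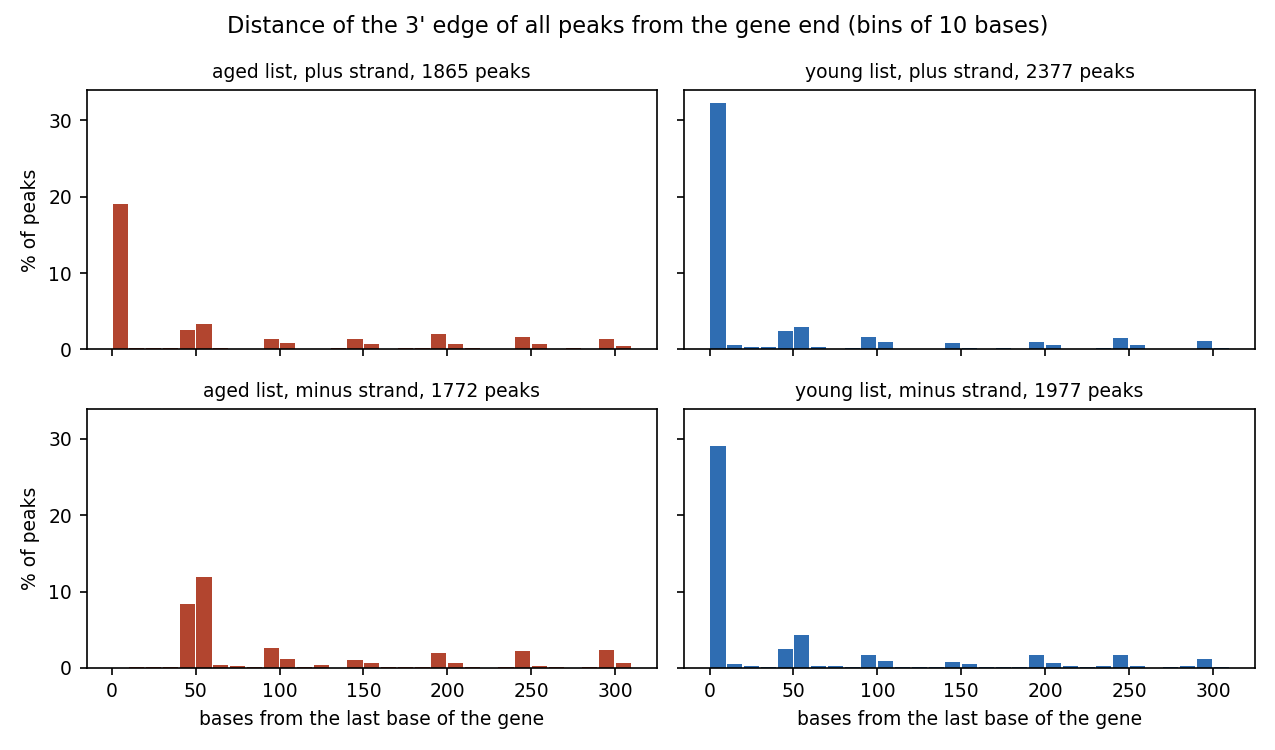
Share of peaks (vertical axis, % of the peaks of that list and strand) by the distance of the downstream edge from the last base of the gene (horizontal axis, bins of 10 bases), for the aged list at the left and the young list at the right, plus strand above minus strand. Aged minus-strand peaks are missing from the first bin, and 18.3% of them lie 48 to 50 bases from the gene end.

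The wider machinery was described with 9 lists of 124 genes in all, of which 37 had a peak, the members included. Of these, 11 were aged-only (29.7%, 17.5 to 45.8), 13 shared (35.1%, 21.8 to 51.2) and 13 young-only (35.1%, 21.8 to 51.2). Without the 10 genes above, the counts were 8 aged-only, 10 shared and 9 young-only of 27. These shares were near those of all genes with a peak, 26.9%, 31.8% and 41.3%.

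Of the 15 cyclins and cyclin-dependent kinases that act in the division cycle, 5 had a peak, with none aged-only, 1 shared and 4 young-only. The shares of all genes with a peak were 26.9% aged-only, 31.8% shared and 41.3% young-only. Beside CCND2 and CDK6, the young-only genes were CDK4 (1.96), the partner kinase of the D cyclins, and CCNA2 (1.69), a cyclin of S phase and mitosis. CDK7, the kinase that activates other cyclin-dependent kinases, was shared, with folds of 2.18 in the aged and 3.67 in the young list. With a fold of at least 2, the young-only CCND2 and CDK6 and the shared CDK7 were left, where 54.7% of all genes were young-only. With lists of equal length, where 37.4% of all genes were young-only, no cyclin was left, and of the kinases 2 were young-only and 1 shared.

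Of 7 kinase inhibitors, only CDKN1B had a peak, and CDKN2A and CDKN2B have no entry under these names in the gene table. Of 13 genes of the RB and E2F family, E2F6, a repressor of E2F targets, was shared (1.80 aged and 1.75 young). E2F5 (2.29) and the E2F partner gene TFDP2 (1.5) were young-only. CDC25B (2.18), a CDC25 phosphatase that acts at entry into mitosis, was young-only, whereas its relative CDC25A was aged-only.

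Of 18 replication licensing genes 6 had a peak, with 4 aged-only, 2 shared and none young-only. The shares of all genes with a peak were 26.9% aged-only, 31.8% shared and 41.3% young-only. The aged-only genes were CDC6 (1.80), which loads the helicase, the helicase subunit gene MCM3 (1.65), and the origin recognition genes ORC4 (1.62) and ORC5 (1.57), the last 2 named after their values were seen because the count is small. ORC3 was shared with MCM6, at 2.62 in the aged and 2.25 in the young list. All 4 aged-only folds were below 2, so that with a fold of at least 2 no aged-only licensing gene was left and 2 shared ones were. At that fold 26.1% of all genes were aged-only and 19.1% shared. With an adjusted p of at most 0.01 the licensing counts were 3 aged-only, 1 shared and 1 young-only, against 25.4%, 30.8% and 43.8% of all genes. With peaks within 1 exon they were 4, 1 and 1, against 26.5%, 28.9% and 44.6% of all genes. In both settings the young-only gene was MCM6. The counts without these limits are small too: 4 of 6 has an interval of 30.0 to 90.3%, and 4 young-only of 5 cyclins and kinases one of 37.6 to 96.4%. The difference between these lists was not tested. The deposited annotation names 15 genes with a peak under DNA replication, MCM6 and MCM3 among them, with 3 aged-only (20%, 7.05 to 45.2), 8 shared (53.3%, 30.1 to 75.2) and 4 young-only (26.7%, 10.9 to 52.0).

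Of 30 mitosis genes 11 had a peak, 3 aged-only (27.3%, 9.75 to 56.6), 5 shared (45.5%, 21.3 to 72.0) and 3 young-only (27.3%, 9.75 to 56.6). For this and the next lists, the shares of all genes with a peak were 26.9% aged-only, 31.8% shared and 41.3% young-only. Beside MKI67, the aged-only genes were CDC27 (2.55), a subunit of the anaphase-promoting complex, and the spindle checkpoint kinase gene BUB1 (1.86). The condensin gene SMC4 (2.89 aged and 2.00 young) and the kinesin gene KIF23 (2.40 aged and 2.27 young), which acts in cytokinesis, were shared. The spindle kinesin gene KIF11 (2.58) and CENPA (2.19), the centromeric histone gene, were young-only. Of 26 senescence regulators 7 had a peak, 2 aged-only (28.6%, 8.22 to 64.1), 2 shared (28.6%, 8.22 to 64.1) and 3 young-only (42.9%, 15.8 to 75.0). TERF1 (2.5), which binds telomeres, and ETS2 (1.66), a relative of ETS1, were aged-only. The TERF1 peak had an adjusted p of 0.011 and was lost with an adjusted p of at most 0.01. The histone chaperone gene ASF1A was shared (2.05 aged and 2.40 young), and the Polycomb gene CBX7 (2.67) was young-only beside SIRT6 and HMGA1. Of 10 lamina genes, TMPO, which encodes a lamin-binding protein, was shared (2.08 aged and 1.67 young) and LMNB1 was aged-only.

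**Figure D5:**
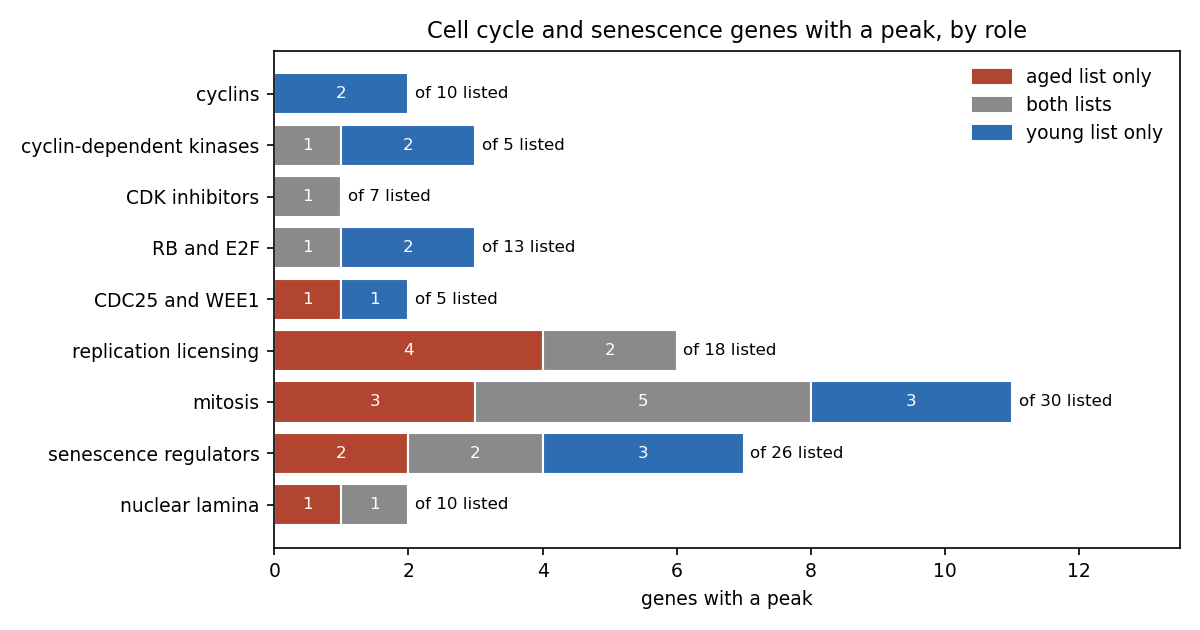
Number of genes with a peak (horizontal axis) in 9 lists by role, divided into aged-only (red), shared (grey) and young-only (blue), with the number of genes listed at the right. Of 5 cyclins and kinases none was aged-only (0.0 to 43.4%), against 26.9% of all genes. Of 6 replication licensing genes none was young-only (0.0 to 39.0%), against 41.3% of all genes. With an adjusted p of at most 0.01, or with peaks within 1 exon, 1 licensing gene was young-only. Mitosis held 3 aged-only, 5 shared and 3 young-only genes, and senescence regulators 2, 2 and 3.

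Other pathway names in the deposited annotation were counted too. Cell cycle and Cellular senescence each covered more genes with a peak than the lists, and p53 signaling pathway covered fewer. CCND2, CDK6, CDC25A, MCM6 and CDKN1B carried the name Cell cycle, which 53 genes with a peak had. Of these, 17 were aged-only (32.1%, 21.1 to 45.5), 15 shared (28.3%, 18.0 to 41.6) and 21 young-only (39.6%, 27.6 to 53.1). For this and the next names, the shares of all genes with a peak were 26.9% aged-only, 31.8% shared and 41.3% young-only. CCND2, CDK6, CDC25A and ETS1 carried the name Cellular senescence, as did 58 genes, of which 14 were aged-only (24.1%, 15.0 to 36.5), 14 shared (24.1%, 15.0 to 36.5) and 30 young-only (51.7%, 39.2 to 64.1). With a fold of at least 2 these senescence counts were 3, 7 and 21, against 26.1% aged-only, 19.1% shared and 54.7% young-only among all genes at that fold. With lists of equal length they were 17, 11 and 20, against 32.8% aged-only, 29.8% shared and 37.4% young-only among all genes. CCND2 and CDK6 also carried the name p53 signaling pathway, whose 21 genes were 6 aged-only (28.6%, 13.8 to 50), 7 shared (33.3%, 17.2 to 54.6) and 8 young-only (38.1%, 20.8 to 59.1). MKI67 and HMGA1 had no pathway name.

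Markers of ovarian cell types were counted beside these genes. Of 63 markers in 9 lists 30 had a peak, with 7 aged-only (23.3%), 7 shared (23.3%) and 16 young-only (53.3%), against 26.9%, 31.8% and 41.3% of all genes. For granulosa cells 3 of 9 markers had a peak, with FSHR and INHBB shared and INHBA young-only. For oocytes 4 of 10 had a peak, with 1 aged-only, 1 shared and 2 young-only. The 3 theca and luteal markers with a peak, of 7, were young-only. For stroma 5 of 7 had a peak, with 1 aged-only, 1 shared and 3 young-only, and the 1 smooth muscle marker with a peak, of 6, was young-only. For endothelium 5 of 6 had a peak, with 3 aged-only, 1 shared and 1 young-only. Macrophage markers with a peak were 3 of 6, with none aged-only, 1 shared and 2 young-only, and lymphocyte markers 2 of 6, with 1 aged-only and 1 young-only. For surface epithelium 4 of 6 had a peak, with 1 aged-only, 1 shared and 2 young-only. A peak is no measure of a cell's share of the tissue, and the part of cell makeup in the peaks of the 10 genes was not tested.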

How the data were processed

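Ovarian RNA of 4 samples was assayed, and the deposited peak lists of the 2 immunoprecipitates were used. Per the labels' protocols, Trizol was used to extract the RNA and a stranded kit for total RNA to prepare the libraries. The submitters' processing notes name ChIPseeker and DESeq2, without a stated role. No source used here gives the aligner, the peak caller or the build. Per the file headers, the authors give each peak a fold enrichment (a ratio) and a p-value with its adjusted p-value. The log10 p columns, as deposited, were used as a score. The deposited width, in bases, is shorter than the span where a peak crosses introns. Sequencing depth is unknown.

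Starts were shifted by 1 base. Peaks of the lists were paired where their spans had 1 base or more in common and the strand was the same. A gene was aged-only, shared or young-only by its peaks in the lists. Gene identifiers matched the RefSeq table (ARS-UI_Ramb_v3.0) for 99.5% of aged and 99.5% of young peaks, which gave chromosome numbers and gene ends. None of its coordinates are printed. Genes and lists were chosen with earlier results of these data known. The deposited pathway counts, the plus strand alone, peaks within 1 exon and 50% of widths were chosen after seeing the data. From each list up to 2 other genes per class were named by fold. Alternatives were lists of equal length, a fold of at least 2, matching by symbol, an adjusted p of at most 0.01, and only peaks labelled exon or UTR. Overlap code was tested on simulated data. Versions were matplotlib 3.10.9, scipy 1.17.1, numpy 2.4.6, pandas 2.3.3 and Python 3.11.15.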

Additional observations from a re-analysis of the deposited data

How the results depend on the processing

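The aged-only count of the 10 genes stayed at 3 or 4 in every alternative but the plus strand alone, and the genes behind it changed. With a fold of at least 2, 7 of the 10 kept their class: SIRT6 and HMGA1 lost their peaks, CDKN1B became aged-only, and 2 members were young-only; over the 9 lists 8 genes were aged-only, 7 shared and 8 young-only, against 26.1%, 19.1% and 54.7% of all genes. With an adjusted p of at most 0.01 the aged peaks of MCM6 and CDKN1B were lost, which made both genes young-only. That left 3 aged-only, 1 shared and 6 young-only members, against 25.4%, 30.8% and 43.8% of all genes. The shared member was also the only 1 with overlapping peaks. With exon and UTR labels only, CDC25A, CDK6, SIRT6 and HMGA1 lost their peaks, CDKN1B became aged-only, 1 young-only member was left, and the lists had 15 aged-only, 7 shared and 5 young-only genes, against 41.3%, 26.3% and 32.4% of all genes. On the plus strand alone the members were 1 aged-only, 1 shared and 2 young-only, and the lists 5, 5 and 8, against 25%, 32.2% and 42.8% of all genes. With peaks within 1 exon CCND2 lost its peak and MCM6 became young-only. With equal list lengths, where the young list held 3656 peaks like the aged one, CCND2 lost its peak and ETS1 became aged-only. The lost young peaks had weak p for their list, at least as strong as 5.78% (CCND2) and 8.31% (ETS1) of young peaks. Both young ETS1 peaks still had a stronger log10 p (-8.02) than the aged peak that was kept (-6.57). Matching by symbol changed the class of none of the 10 genes. MKI67 and LMNB1 kept their class in each alternative other than the plus strand alone. Requiring 50% of both spans left 2 shared members with overlapping peaks, and 50% of both widths left 3. Overlap of exon blocks was not run, since the files give no blocks. No paired analysis was possible because the ages share no replicate number and no test was made, and leaving out a replicate would leave no list for that age.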
